A study of Saccharomyces cerevisiae with 6 samples.

Results

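Gluconeogenesis and the glyoxylate shunt were examined through 10 yeast genes, chosen by name from 18646 transcriptional units, of which 6692 were protein coding. The genes encode enzymes (PCK1, FBP1, ICL1, MLS1, MDH2, ACS1), carriers for acids in the plasma membrane (JEN1, ADY2), and transcription activators (CAT8, ADR1). PCK1 was chosen for its lower count in cells lacking Set2, and the others were added around it by function, with results of the same contrast known. Read counts and fold changes of the 10 genes are therefore given as descriptions, without P values. Counted reads were found for 6 of the 10 genes, and 5 passed the filter on low counts.

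Yeast growing on ethanol, acetate, or lactate must make sugar phosphates from small carbon compounds. The glyoxylate shunt joins acetyl units into malate, malate dehydrogenase makes oxaloacetate, phosphoenolpyruvate carboxykinase (Pck1) turns that into phosphoenolpyruvate, and fructose-1,6-bisphosphatase (Fbp1) bypasses the irreversible phosphofructokinase step. In glucose most of these genes are repressed, in part through the repressor Mig1, while the kinase Snf1 and the activators Cat8 and Adr1 switch them on once glucose runs out. Set2 methylates histone H3 at lysine 36 behind elongating RNA polymerase II, and loss of this mark is known to permit transcription from inside genes and on the antisense strand.

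RNA was compared between 3 Δset2 and 3 wild-type (WT) cultures of W303, a laboratory strain of budding yeast. The labels give the deletion as set2::His3, whereas the methods of the study describe a KanMX cassette, and WT cells carried no deletion of SET2. Both groups were grown in YPDA, a rich glucose medium, to an optical density of 0.6, and each RNA was extracted from a separate colony. How many independent deletion clones these represent is not given in the sources used here. Libraries from RNA without rRNA were combined in 1 pool, and single-end reads of 76 nt were taken.

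The libraries held between 5135226 and 22536840 counted reads in Δset2 and between 10568372 and 15015735 in WT. SET2 itself had 20, 9, and 32 reads in Δset2, against 435, 298, and 459 reads in WT. WT 2 stood apart from its group, with a chi-square per degree of freedom of 65.4 and 65.9 to the other WT libraries, which differed from each other by 14.7. Δset2 2, the smallest library, stood at 32.8 and 35.0 to the other Δset2 libraries, which differed from each other by 20.2. All MATa markers (6 of 6) were tested and 0 passed the thresholds in edgeR or in DESeq2, with 1 at an unadjusted p under 0.05 in edgeR. The MATalpha pheromone gene MF(ALPHA)1 had 0, 1, and 2 reads in Δset2, against 0, 0, and 1 reads in WT. Of the 5 MATalpha markers, 4 were in the annotation. MF(ALPHA)2 left no position for a read, so its 0 reads say nothing of its RNA level. SAG1 rose by 0.89 on the log2 scale and STE3 fell by 2.44, and both passed the thresholds in edgeR and in DESeq2.

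Motifs of carbon source regulators were searched upstream of the 10 genes. In the 600 nt upstream of the start codon, the outline of the carbon source response element (CCNNNNNNCCG), the kind of element that Cat8 binds, matched in 7 of the 10 genes. It matched in 24.7% of 5999 yeast promoters of that length, read on both strands from the RefSeq R64 genome. The 10 genes had an average of 2.4 matches, against 0.303 over all promoters, and 12 of 22 other targets of Cat8 and Adr1 had a match. Overlapping matches were counted separately, as at positions -440 and -432 of FBP1. In the related lists the share ran from 3 of 16 genes of the Snf1 and Mig1 pathway to 5 of 8 genes of the GID ubiquitin ligase. JEN1, CAT8, and ADR1 had 0 matches in this window. The elements shown here are those of PCK1 and, for the other enzymes and ADY2, an example each, written on the strand of the gene with the match in capitals. A match on the opposite strand reads CGG first, and positions are counted from the start codon in nt, upstream negative.

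PCK1, position -562, chrXI:630582-630608, plus strand: gacgctgaCGGGTGAATGGagatctgg

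PCK1, position -481, chrXI:630663-630689, plus strand: ccgagcttCCTTTCATCCGgcgcggct

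PCK1, position -362, chrXI:630782-630808, plus strand: tggataggCGGATAAAGGGcccaaaca

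FBP1, position -504, chrXII:875278-875304, minus strand: ctcttttcCGGACGGATGGaatcgccg

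ICL1, position -398, chrV:287294-287320, minus strand: ccaggtttCCATTCATCCGagcgatca

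MLS1, position -531, chrXIV:405819-405845, plus strand: attgctatCGGCTCAATGGaaatcccc

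MDH2, position -377, chrXV:83279-83305, minus strand: tactttgcCCATTCGGCCGtagccgtt

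ACS1, position -371, chrI:45375-45401, minus strand: tgactgctCCATTTCGCCGgatgtcga

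ADY2, position -511, chrIII:133617-133643, minus strand: tccactgcCCGTTGATCCGgagctccg

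Core Mig1 sites (GCGGGG or GTGGGG or CCGGGG or CTGGGG) were found upstream of 7 of the 10 genes, compared with 27.8% of all promoters. They were also found in 18 of 22 other targets of Cat8 and Adr1 and 11 of 18 genes of the citric acid cycle. PCK1 had 1 such site and CAT8 had 2, shown here because both genes could be counted, again on the strand of the gene and with the site in capitals.

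PCK1, position -279, chrXI:630865-630886, plus strand: aggcttggCTGGGGatagcaac

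CAT8, position -231, chrXIII:831547-831568, minus strand: atggagcgGCGGGGctgatatt

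CAT8, position -215, chrXIII:831531-831552, minus strand: gatattttGTGGGGtacgaaag

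Adr1 core sites (TTGGAG or TTGGGG) were found in 4 of the 10 windows, a share of 40% beside 32.1% of all promoters and 16 of the 22 other targets. ADY2 had 4 of these matches and ACS1 had 3, and no such letters were found upstream of PCK1. The CCAAT box, bound by the HAP complex that drives respiratory genes, matched in 10 of 10 windows and in 70.3% of all promoters. In the related lists its share ran from 8 of 16 glycolytic enzymes to 16 of 18 genes of the citric acid cycle. Windows were counted from the start codon, and the CCAAT matches of ICL1 and ADR1 lay inside the transcribed unit. On the opposite strand CCAAT reads ATTGG, so that it can share letters with an Adr1 core site, as at position -299 of ACS1. ADR1 had a single match among the motifs searched, a CCAAT box at position -141. The ADR1 unit starts far upstream of its start codon, so most of its window lay inside the unit. Little sequence upstream of the ADR1 unit was therefore searched. The element outline nearest to a start codon lay at position -221, upstream of ACS1, and the binding of any factor was not measured.

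**Figure D1:**
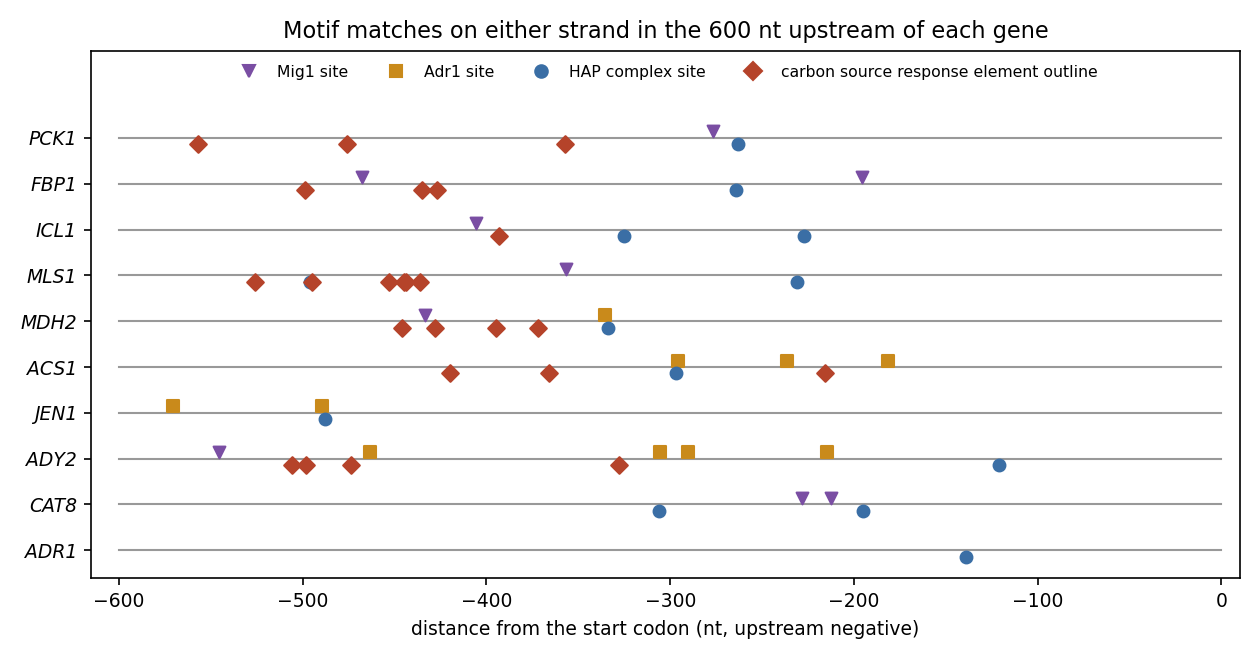
Matches on either strand in the 600 nt upstream of each of the 10 genes, plotted by distance from the start codon in nt, with a symbol for each motif. Element outlines (diamonds) appear in 7 of the 10 genes and are missing from JEN1, CAT8, and ADR1.

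Whether a gene could be counted at all depended on what was annotated opposite it. The counting discarded every read that touched more than 1 unit on either strand, and the annotation held the noncoding classes CUTs (cryptic unstable transcripts), SUTs (stable unannotated transcripts), and XUTs (transcripts that the exonuclease Xrn1 degrades), many of them antisense to genes. Such a unit lay opposite 9 of the 10 genes, compared with 29.0% of 6692 protein-coding units. More than 50% of the gene was covered in this way in 8 of 10, compared with 872 of the 6692 protein-coding units. The median share of bases free of any other unit was 9.52% in the 10 genes and 90.7% in protein-coding units. ADR1 was the exception among the 10, with all of its 4945 nt free.

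No position was left for a 76-nt read in 4 of the 10 genes (40%), and these had 0 reads in every sample. They were ICL1 (isocitrate lyase, the first enzyme of the glyoxylate shunt), MLS1 (malate synthase, its second enzyme), JEN1 (the lactate and pyruvate permease), and ADY2 (the acetate transporter). ICL1 (YER065C, 2145 nt) is covered by SUT093 and XUT_5F-139, MLS1 (YNL117W, 1785 nt) by CUT811 and XUT_14R-162, and JEN1 (YKL217W, 2113 nt) by SUT657, SUT658, and XUT_11R-12. ADY2 (YCR010C) kept 13 free nt of 1145, fewer than a read needs. A count of 0 in these 4 genes says nothing of their RNA level, and no comparison of Δset2 with WT could be made for them. Among all protein-coding units, 791 (11.8%) left no position for a full-length read, and 20 of these still held counted reads.

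**Figure D2:**
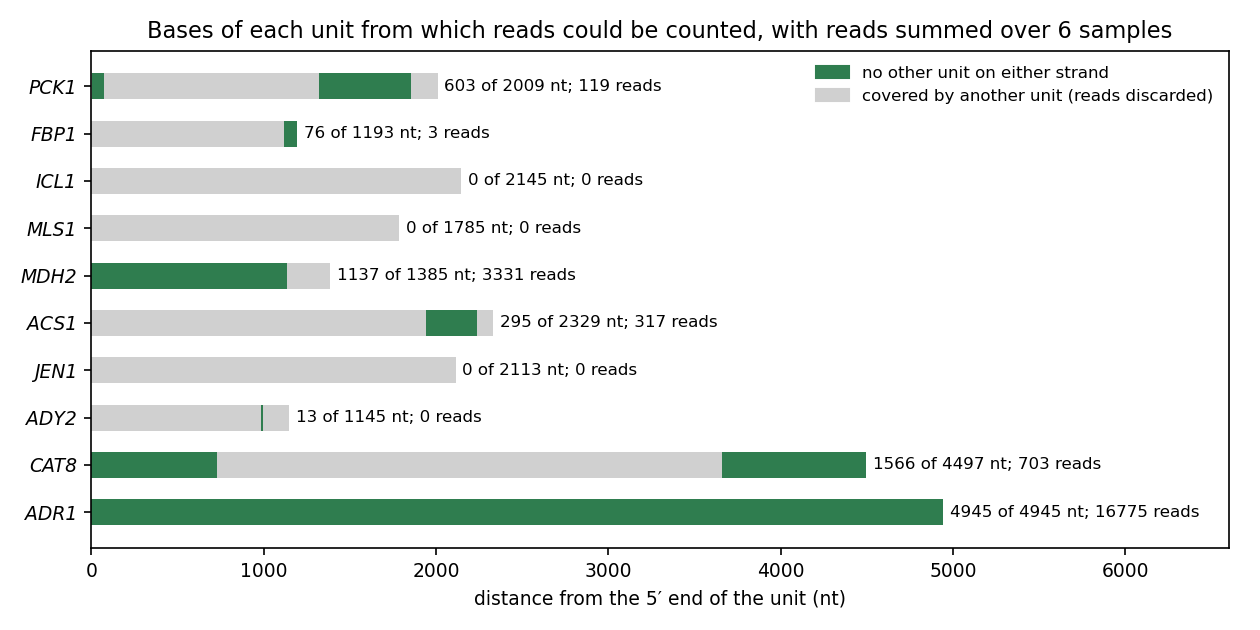
Each gene from the 5′ end of its unit, in nt, with bases covered by no other unit in green, covered bases in gray, and the reads summed over the 6 samples beside it. Free bases ran from 0 nt in ICL1, MLS1, and JEN1 to 4945 nt in ADR1. PCK1 had 603 of 2009 nt free, of which a stretch of 532 nt could hold a full-length read.

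PCK1 had the largest log2 fold change in size among the 5 genes tested. Its unit (YKR097W, chromosome XI, 631016 to 633024 on the plus strand of sacCer3) encodes the enzyme that commits oxaloacetate to gluconeogenesis. It had 3, 6, and 14 reads in Δset2, against 21, 29, and 46 reads in WT. Scaled to library size as normalized CPM, this was 0.310, 1.20, and 0.613 CPM in Δset2, against 1.79, 2.85, and 3.03 CPM in WT. All Δset2 values lay below all WT values. The highest Δset2 library (Δset2 2) had 6 reads, and its exact Poisson interval at 95% ran from 0.439 to 2.60 CPM, reaching into that of the lowest WT library (1.11 to 2.74 CPM). These intervals cover counting error only.

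The mean level of PCK1 was 0.706 ± 0.450 CPM in Δset2 and 2.56 ± 0.667 CPM in WT (SD, n = 3 each). The edgeR fit gave a log2 fold change of -2.04 (SE 0.39, calculated from the F statistic of the fit), which is 4.12-fold lower in Δset2. Leaving out any 1 library kept it between -2.30 and -1.78, but the unit missed the thresholds without Δset2 1 (-1.78), without Δset2 3 (-2.02), or without WT 3 (-1.88). PCK1 was chosen for this difference, so the values describe it and do not test it. In whole cultures, fewer cells with the RNA and less RNA per cell cannot be told apart.

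The reads of PCK1 came from a small part of the gene. XUT_11R-267, annotated on the opposite strand from 631088 to 632335, covered 62.1% of the unit, and UBP11, a convergent gene for a ubiquitin protease, covered its 3′ end. Bases under no other unit were left in a stretch of 71 nt at the 5′ end, shorter than a read, and in a stretch of 532 nt that began 1321 nt from the 5′ end. The count was made without strand, so sense and antisense RNA in this stretch cannot be told apart. XUT_11R-267 lies wholly within PCK1, so its reads were discarded and its count of 0 says nothing of antisense RNA. UBP11 had 255, 106, and 588 reads in Δset2, against 227, 323, and 323 in WT, with a log2 fold change of 0.04 (SE 0.18, edgeR quasi-likelihood, Benjamini-Hochberg adjusted P = 0.92).

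The units whose pattern over the 6 samples lay nearest to PCK1 were SSP1, IME1, and IRC18, by the root mean square difference of log2 CPM relative to the WT mean. SSP1 (YHR184W), needed for membrane assembly in sporulation, was nearest at 0.25. It had 4, 7, and 17 reads in Δset2, against 36, 37, and 42 reads in WT. IME1, the master activator of meiosis, followed at 0.48 and IRC18 at 0.54. All 3 had few reads, between 1 and 42 per sample, and like PCK1 they were picked from this contrast, so their likeness is a description. Of 6 sporulation markers 5 were tested, and in edgeR 0 rose and 1 fell (IME1), with 2 at an unadjusted p under 0.05, whereas DESeq2 called 1 higher and 1 lower. IME2, a kinase of meiosis, had a log2 fold change of 0.77 (adjusted P = 0.062 from edgeR). The list summed to 23.2, 19.7, and 18.9 CPM in Δset2, against 14.2, 20.3, and 15.7 CPM in WT.

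FBP1 (YLR377C, chromosome XII, 873636 to 874828), the bisphosphatase of the last regulated step, was covered on 93.6% of its length by antisense units and kept 76 free nt. It had 0, 0, and 2 reads in Δset2, against 0, 0, and 1 reads in WT. Both groups were at or under 3 reads per library, and no fold change was computed. MDH2 (YOL126C, chromosome XV, 81622 to 83006), the cytosolic malate dehydrogenase, was counted on 1137 of 1385 nt. It had 65.1, 44.6, and 45.1 CPM in Δset2, against 29.8, 52.7, and 36.9 CPM in WT. The groups overlapped through WT 2, the highest WT library, and the log2 fold change was 0.38 (SE 0.21). Without WT 2 it was 0.63 and past both thresholds.

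ACS1 (YAL054C, chromosome I, 42740 to 45068), the acetyl coenzyme A synthetase used in the absence of glucose, was counted on 295 of 2329 nt near its 3′ end. It had 4.54, 3.79, and 4.64 CPM in Δset2, against 3.67, 4.23, and 4.08 CPM in WT. The groups overlapped, and the log2 fold change was 0.15 (SE 0.18).

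Of the activators, CAT8 (YMR280C, chromosome XIII, 826942 to 831438) encodes the zinc cluster protein that binds carbon source response elements. It had 10.4, 9.57, and 10.4 CPM in Δset2, against 7.17, 10.9, and 8.03 CPM in WT, counted on 1566 of 4497 nt. WT 2 lay above every Δset2 library, so that the groups overlapped, and the log2 fold change was 0.24 (SE 0.17). ADR1 (YDR216W, chromosome IV, 894514 to 899458) encodes the zinc finger activator of genes for alcohol, glycerol, and fatty acid use. It had 3183, 1284, and 6563 reads in Δset2, against 1404, 2349, and 1992 reads in WT.

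ADR1 had 328, 256, and 287 CPM in Δset2, against 120, 231, and 131 CPM in WT. The groups did not overlap, though WT 2 lay close to Δset2 2. Its mean was 290 ± 36.4 CPM in Δset2 and 161 ± 61.1 CPM in WT (SD, n = 3 each), a log2 fold change of 0.86 (SE 0.22) or 1.81-fold higher. Without WT 2 the log2 fold change was 1.21, and without any other single library ADR1 missed the thresholds, with a lowest value of 0.68.

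**Figure D3:**
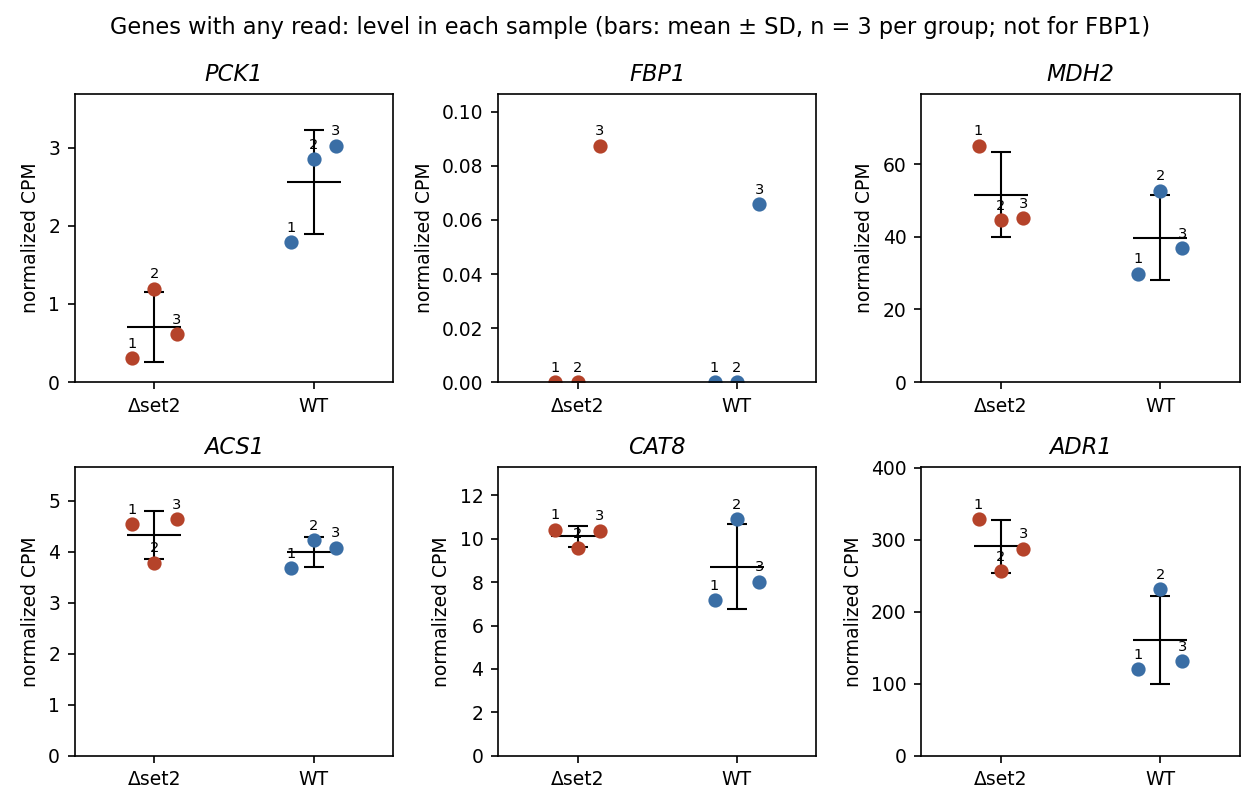
Normalized CPM in each library for the 6 genes with any read, with Δset2 (red) left of WT (blue), libraries numbered, and bars for the mean ± SD (n = 3 each), which FBP1 lacks because it had at most 2 reads. PCK1 and ADR1 are the genes whose groups do not overlap, and WT 2 is the highest WT library for MDH2, CAT8, and ADR1.

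Of the 5 genes tested, ADR1 (higher) and PCK1 (lower) passed an adjusted P value of 0.05 and a fold change of 1.5. Over all 5317 units tested 3.57% passed in either direction, 2.84% higher and 0.733% lower in Δset2. Groups did not overlap in 2 of the 5 genes, compared with 27.9% of all units tested. The contrast was used to choose the genes, so nothing is read from these counts. Log2 fold changes were positive in 4 of the 5 genes and their median was 0.24, beside -0.004 over all units tested.

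Levels between genes were compared as CPM per kilobase. Per kilobase of the whole unit, the WT mean was 32.5 ± 12.4 for ADR1, 28.7 ± 8.46 for MDH2, 1.94 ± 0.436 for CAT8, 1.71 ± 0.124 for ACS1, and 1.27 ± 0.332 for PCK1 (SD, n = 3). Free bases leave out sequence under another unit, but part of them could not hold a full-length read. PCK1 had 457 positions for such a read on 603 free nt, and CAT8 had 1514 on 1566 nt. Per kilobase of free bases, the WT mean was 35.0 ± 10.3 for MDH2, 32.5 ± 12.4 for ADR1, 13.5 ± 0.976 for ACS1, 5.56 ± 1.25 for CAT8, and 4.24 ± 1.11 for PCK1. ACS1 thus moved from near CAT8 to a level above it. On this scale MDH2 and ADR1 did not differ beyond their spread, and their order changed between WT libraries. The ranges of mean ± SD of CAT8 and PCK1 overlapped. Within each WT library, however, CAT8 lay above PCK1, at 4.58, 6.97, and 5.13 against 2.97, 4.73, and 5.02. Among 5767 protein-coding units ranked on free bases in WT, MDH2 stood at percentile 67.2, ADR1 at 65.4, ACS1 at 39.7, CAT8 at 19.5, and PCK1 at 15.95. In Δset2, PCK1 had 1.17 ± 0.747 CPM per kilobase of free bases and ADR1 had 58.7 ± 7.36.

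The other genes of the pathway were read from lists set by function, with earlier results of these data known. Within the lists, genes were named by their values in this contrast. Their P values are therefore not those of genes chosen beforehand. The glucose repression pathway of Snf1 and Mig1 had 14 of 16 genes tested and 0 past the thresholds in edgeR or in DESeq2, with 1 at an unadjusted p under 0.05 in edgeR and a median log2 fold change of 0.01. MIG1, encoding the repressor, had 31.2, 27.9, and 28.7 CPM in Δset2, against 25.5, 21.2, and 20.9 CPM in WT. Its log2 fold change of 0.38 (SE 0.11) did not pass the threshold (adjusted P = 0.083 from edgeR). For MIG3, a paralogous repressor, the log2 fold change was 0.52 (SE 0.25, adjusted P = 0.25 from edgeR), on 390 of 1305 nt.

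Among 12 other regulators of growth on nonfermentable carbon, all tested, 2 rose and 0 fell, with a median log2 fold change of 0.16. PIP2, which with Oaf1 activates genes for peroxisomes and fatty acid oxidation, had 49.9, 51.2, and 49.5 CPM in Δset2, against 23.2, 26.7, and 26.2 CPM in WT. The groups lay far apart and WT 2 did not stand out. The log2 fold change of PIP2 was 0.98 (SE 0.10, adjusted P = 0.00054 from edgeR). RSF2, a zinc finger protein of growth on glycerol, averaged 51.0 ± 3.58 CPM in Δset2 and 32.1 ± 1.13 CPM in WT (SD, n = 3 each), with a log2 fold change of 0.67 (SE 0.10, adjusted P = 0.0044 from edgeR).

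Of 22 other targets of Cat8 and Adr1, 14 could be tested, 2 rose, 0 fell, and the median log2 fold change was 0.26. GUT1, the glycerol kinase, had 70.4, 53.2, and 59.4 CPM in Δset2, against 28.7, 29.4, and 29.9 CPM in WT. Its log2 fold change was 1.06 (SE 0.12, adjusted P = 0.00084 from edgeR), 2.08-fold higher. DLD1, the mitochondrial D-lactate dehydrogenase, averaged 26.1 ± 2.09 CPM in Δset2 and 16.6 ± 1.41 CPM in WT (SD, n = 3 each). Its log2 fold change was 0.64 (SE 0.11, adjusted P = 0.011 from edgeR). DLD1 missed the threshold without Δset2 3, without WT 1, or without WT 3 (adjusted P up to 0.069 from edgeR), and without WT 2 the list had 4 called genes, with ALD4 and GUT2 added. ALD4 had the largest log2 fold change of the list, 1.19 (SE 0.31, adjusted P = 0.051 from edgeR). It was also called without Δset2 2, without a filter, and with protein-coding units alone. Of the 22 genes, 9 had over 50% of their length under noncoding units, the alcohol dehydrogenase gene ADH2 was among those not tested, and the median free share of the list was 64.8%.

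Peroxisomal fatty acid oxidation, which supplies acetyl units to the shunt, had 8 of 14 genes tested, of which 1 rose and 0 fell. All 8 had a positive log2 fold change, with a median of 0.49. PXA1, a subunit of the transporter that brings fatty acids into peroxisomes, had 16.4, 17.7, and 16.1 CPM in Δset2, against 8.20, 12.1, and 8.22 CPM in WT. Its log2 fold change was 0.82 (SE 0.16, adjusted P = 0.020 from edgeR). DESeq2 also called PXA2, and without WT 2 the count was 4, with ECI1 and DCI1 added. Without Δset2 1, Δset2 3, WT 1, or WT 3 it was 0 (adjusted P of PXA1 up to 0.11 from edgeR).

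The mitochondrial citric acid cycle and its feeder enzymes had all 18 genes tested, of which 0 rose and 1 fell, with a median log2 fold change of 0.09. MAE1, the mitochondrial malic enzyme, averaged 88.8 ± 9.75 CPM in Δset2 and 136 ± 17.0 CPM in WT (SD, n = 3 each). It fell by 0.62 on the log2 scale (SE 0.12, adjusted P = 0.018 from edgeR). Of 16 glycolytic enzymes, all tested, 2 rose and 0 fell, with a median log2 fold change of 0.08. Both enzymes that rose phosphorylate glucose. HXK1, a hexokinase, had 419, 260, and 418 CPM in Δset2, against 155, 257, and 193 CPM in WT, with a log2 fold change of 0.86 (SE 0.21, adjusted P = 0.042 from edgeR). For GLK1, glucokinase, it was 0.81 (SE 0.19, adjusted P = 0.036 from edgeR). The calls of MAE1, HXK1, and GLK1 were each lost without Δset2 1, Δset2 3, WT 1, or WT 3, with adjusted P values (edgeR) up to 0.11, 0.18, and 0.16 in that order.

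The GID ubiquitin ligase marks Fbp1, Pck1, and Mdh2 for degradation when glucose returns. All 8 of its genes were tested, and 0 passed the thresholds in edgeR or in DESeq2, with 3 at an unadjusted p under 0.05 in edgeR and a median log2 fold change of 0.17. VID24, the substrate receptor, had a log2 fold change of 0.50 (SE 0.18, adjusted P = 0.13 from edgeR), and without WT 2 it was 0.68 and past the thresholds (adjusted P = 0.018 from edgeR). For GID7, another subunit, it was 0.42 (SE 0.19, adjusted P = 0.22 from edgeR).

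**Figure D4:**
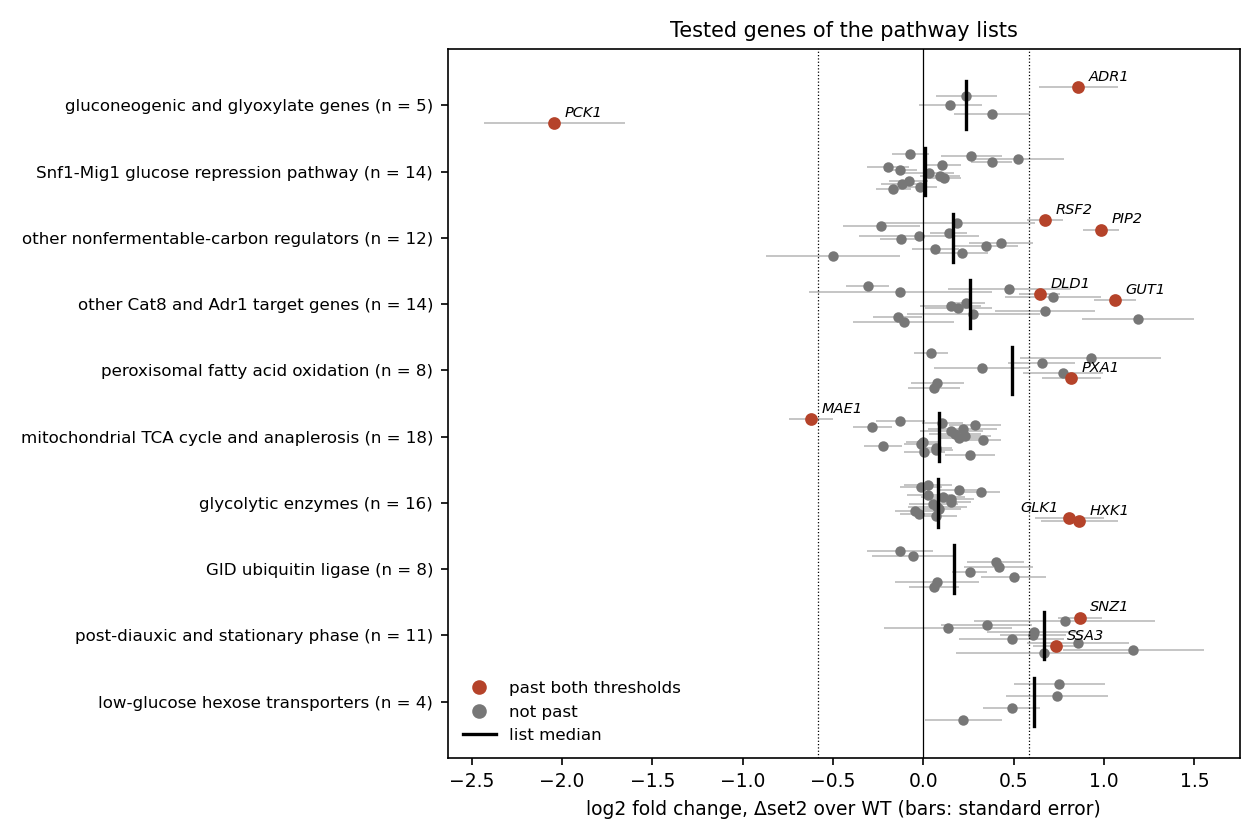
Log2 fold change of Δset2 over WT for the tested genes of the 10 lists shown (mating type, sporulation, and high-glucose transporter markers are not plotted), with standard errors, list medians as vertical bars, and genes past both thresholds in red. PCK1, chosen for its fall, lies at -2.04, below all other genes plotted. In the lists not plotted, STE3 (-2.44) and IME1 (-2.20) lie lower. The post-diauxic and fatty acid oxidation lists have medians of 0.67 and 0.49. Standard errors were calculated from the F statistics of the edgeR fit.

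Genes that mark the approach to glucose exhaustion moved with some of these results. Of 12 post-diauxic and stationary phase markers, 11 were tested, 2 rose (SSA3 by 0.74 and SNZ1 by 0.87 on the log2 scale, adjusted P = 0.010 and 0.0034 from edgeR), and 0 fell. Log2 fold changes were positive in all 11, with a median of 0.67. GRE1 was at 0 reads and left no position for a read. Their summed level was 2321, 1344, and 1964 CPM in Δset2, against 1085, 1970, and 1145 CPM in WT, so that WT 2 lay at the level of Δset2 3 and the groups overlapped.

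Low-glucose hexose transporters (4 of 5 tested) had 0 past the thresholds in edgeR or in DESeq2, with 3 at an unadjusted p under 0.05 in edgeR and a median log2 fold change of 0.61. They summed to 1139, 735, and 988 CPM in Δset2, against 566, 810, and 548 CPM in WT. HXT1, a high-glucose transporter, had 33.6, 51.2, and 34.1 CPM in Δset2, against 40.5, 39.9, and 37.6 CPM in WT, with a log2 fold change of -0.01 (SE 0.15), and HXT3 left no position for a read. Both high-glucose transporters had over 50% of their length under noncoding units, with a median free share of 10.2%, so HXT1 was counted on a small part of its length. The same order, with WT 2 high among WT and Δset2 2 low among Δset2, was seen for ADR1, HXK1, GLK1, and ALD4, the aldehyde dehydrogenase (286, 178, and 267 CPM in Δset2, against 71.9, 174, and 76.9 CPM in WT). PIP2 and PCK1 did not show it, and in GUT1 the WT libraries were nearly level. The part of the growth stage in these results was not tested.

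**Figure D5:**
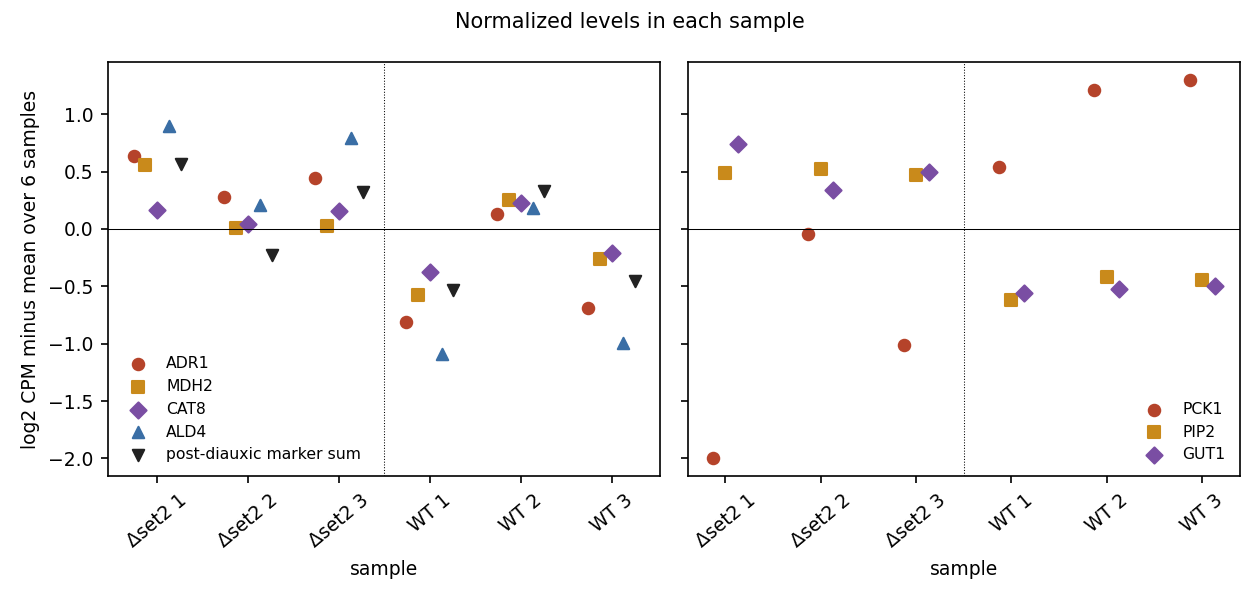
Log2 CPM minus the mean over the 6 samples for each library, Δset2 on the left and WT on the right of each panel. ADR1, MDH2, CAT8, ALD4, and the post-diauxic sum (left panel) are high in WT 2, while for PCK1, PIP2, and GUT1 (right panel) WT 2 lies with the other WT libraries.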

How the data were processed

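The 10 member genes and the gene lists were chosen with earlier results of these data known. RNA-seq reads of 3 Δset2 and 3 WT samples were mapped by the authors to sacCer3 with TopHat2 2.1.0 (processing notes), and those with a mapping quality of at least 20 and a single position were kept. The deposited values used were read counts per transcriptional unit (Ensembl EF4.74 plus noncoding units), made by the authors with summarizeOverlaps without strand, discarding reads that touched more than 1 unit. Deposited FPKM values, the mean normalized count signal, and the authors' DESeq2 results (log2 fold changes, score, and p-values) were not used, and there were 0 other per-sample columns.

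The fit to the counts used R 4.3.3 with limma 3.58.1 and edgeR 4.0.16, namely TMM, filterByExpr, glmQLFit, and glmQLFTest over 5317 units, without a replicate term, and with Benjamini-Hochberg adjustment. The common biological coefficient of variation was 0.121. The quasi-likelihood test gives no standard error. Each SE of a log2 fold change was therefore calculated as its size divided by the square root of its F statistic. The ratio of a log2 fold change to its SE thus restates the F test. For genes given without P values it is not to be read as a test. Units were called at an adjusted P value under 0.05 and a fold change over 1.5. P values set the difference between groups against the spread between colonies. As the number of deletion clones is not given, they cannot be taken to cover differences between clones. For 3 against 3 samples, an exact permutation test of a single gene cannot give a p under 0.1. DESeq2 1.42.0, other size factors, other filters, a replicate block, protein-coding units alone, and leaving out each library were alternatives. The fits were tested on simulated data.

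Tables and figures were made with Python 3.11.15, numpy 2.4.6, pandas 2.3.3, and matplotlib 3.10.9. Free bases were those under no other unit on either strand. The RefSeq R64 genome has the coordinates of sacCer3, and 5986 of 6692 protein-coding units matched a locus tag in it. W303 differs from this reference in sequence. The promoter window of 600 nt was set after the files were seen, and printed sites carry 8 nt on each side. Protein N termini were not analysed here. Named genes were the 10 genes, SET2, the 3 units nearest to PCK1, and from each list every gene past both thresholds without overlap or otherwise the 2 largest changes. UBP11, ALD4, GUT2, PXA2, ECI1, DCI1, ADH2, and the marker genes were named after their values were seen.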

Additional observations from a re-analysis of the deposited data

How the results depend on the processing

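For the 12 genes named from the related lists, 144 values under alternatives were computed, of which 118 kept their side of the thresholds, 25 lost the call, 1 gained it, and 0 changed sign. The 5 tested genes of the 10 also kept their sign. DESeq2 and the fit without a filter each gave 2 called genes for fatty acid oxidation in place of 1. Leaving out 1 library gave between 80 and 373 called units in all, 0 to 3 of the 10 genes, 2 to 2 other regulators, 1 to 4 Cat8 and Adr1 targets, 0 to 4 fatty acid oxidation genes, 0 to 1 citric acid cycle genes, 0 to 2 glycolytic genes, and 0 to 1 GID genes (VID24, without WT 2). The highest count in all, 373, came without WT 2. PIP2 and GUT1 passed under all 12 alternatives. WT levels per kilobase of free bases in place of the whole unit were 4.24 for PCK1, 0.289 for FBP1, 13.5 for ACS1, and 5.56 for CAT8. PCK1, FBP1, and ACS1 rested on few free bases, and PCK1 on 3 to 46 reads per library, which limits their precision whatever the setting.

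Replicate numbers came from the labels, and deviations of same-numbered samples correlated at -0.32, -0.37, and -0.13 across units, and those of other pairs at up to 0.33. These values gave no sign of pairing by number. Deviations from means of 3 libraries depend on each other, so they cannot decide whether same-numbered samples were handled together. With the replicate block, 75 units were called in all, 1 of the 10 genes (PCK1), 1 other regulator (PIP2), 1 Cat8 and Adr1 target (GUT1), and 0 genes each of fatty acid oxidation, the citric acid cycle, and glycolysis. The cause was not tested.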
